A study of Homo sapiens with 8 samples.

Results

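The HOXA cluster on chromosome 7 was examined through 10 of its protein-coding genes: HOXA2, HOXA3, HOXA4, HOXA5, HOXA6, HOXA7, HOXA9, HOXA10, HOXA11 and HOXA13. They were chosen by name, matched from Ensembl identifiers to symbols, and all 10 were found among the 60617 identifiers of the count table and among the 17527 genes that passed a filter on low counts. RNA sequencing was carried out on HEK293T, a transformed human embryonic kidney line that carries the SV40 large T antigen. The 4 groups were wild-type cells (WT) and 3 knockout derivatives named for the targeted gene, sgKDM5C, sgKDM6A and sgKMT2B, with 2 libraries in each. The prefix sg stands for the single guide RNA of CRISPR-Cas9 editing. The sources used here do not give the positions of the guides, or whether a knockout was a single clone or a pool. They do not say that the replicates were separate cultures, so the p-values measure only the spread between these libraries, which may be technical. All cells were grown in the same medium, and the labels name no treatment other than the knockouts.

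HOX genes encode homeodomain transcription factors that specify position along the body axis and in the limbs. Their order along the chromosome follows the order of their expression domains. Genes near the 3′ end act anteriorly, and those near the 5′ end act posteriorly and in the developing limb, kidney and reproductive tract. The HOXA genes were divided here by position only, into anterior (HOXA2 to HOXA5), central (HOXA6 to HOXA9) and posterior (HOXA10 to HOXA13) sets. HOX clusters are a classical target of Polycomb complexes, which silence them with methylation of histone H3 lysine 27, and of Trithorax complexes, which hold them active with methylation of lysine 4. KMT2B is a lysine 4 methyltransferase with a CXXC domain that binds unmethylated CG dinucleotides, KDM5C removes lysine 4 methylation, and KDM6A removes lysine 27 methylation.

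The genes lie on the minus strand of chromosome 7 in GRCh38 (GENCODE v29), from 27100354, the start of HOXA2, to 27200106, the end of HOXA13. Their promoters are shown because of the CXXC domain of KMT2B and because these genes differ in the size of their change in sgKMT2B. KMT2B binding and CG methylation were not measured here, and a relation between CG number and change was not tested. The windows hold the 250 bases before the transcription start in RefSeq (GRCh38.p14), 5′ to 3′ on the minus strand, with each CG dinucleotide in capitals. Of the 10 genes, 9 had such a window in the table used, and HOXA5 had none. The 4 printed windows were chosen after the values were seen: HOXA6 and HOXA11 had the largest decreases in sgKMT2B, and HOXA9 and HOXA13 are a central and a posterior gene with smaller ones. They are chr7:27147775-27148024 for HOXA6, chr7:27165538-27165787 for HOXA9, chr7:27185233-27185482 for HOXA11 and chr7:27200092-27200341 for HOXA13.
HOXA6: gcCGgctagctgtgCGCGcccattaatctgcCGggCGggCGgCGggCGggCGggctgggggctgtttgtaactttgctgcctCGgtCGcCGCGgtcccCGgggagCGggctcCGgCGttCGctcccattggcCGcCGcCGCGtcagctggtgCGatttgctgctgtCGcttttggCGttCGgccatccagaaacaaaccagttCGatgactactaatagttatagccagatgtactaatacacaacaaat
HOXA9: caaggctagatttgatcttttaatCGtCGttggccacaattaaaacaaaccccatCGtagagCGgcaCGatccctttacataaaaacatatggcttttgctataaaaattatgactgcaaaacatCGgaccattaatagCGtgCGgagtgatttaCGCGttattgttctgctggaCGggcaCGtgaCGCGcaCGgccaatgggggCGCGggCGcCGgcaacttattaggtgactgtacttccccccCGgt
HOXA11: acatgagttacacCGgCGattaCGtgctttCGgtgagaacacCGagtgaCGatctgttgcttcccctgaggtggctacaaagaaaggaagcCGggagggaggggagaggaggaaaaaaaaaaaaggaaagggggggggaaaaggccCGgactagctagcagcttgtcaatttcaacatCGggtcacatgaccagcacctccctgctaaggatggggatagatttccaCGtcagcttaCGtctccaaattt
HOXA13: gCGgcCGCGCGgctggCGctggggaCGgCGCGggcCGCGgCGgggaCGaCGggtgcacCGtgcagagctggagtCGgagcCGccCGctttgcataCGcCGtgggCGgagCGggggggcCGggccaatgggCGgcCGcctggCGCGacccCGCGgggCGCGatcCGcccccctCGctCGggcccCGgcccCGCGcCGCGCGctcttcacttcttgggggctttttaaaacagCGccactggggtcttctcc
The HOXA13 window held 40 CG dinucleotides, a number reached by 2.16% of the 35116 promoter windows of the table, whose median was 11. The HOXA6 window held 27 and the HOXA9 window held 20, both above that median. The HOXA11 window held 11, the same as the median, and all 250 of its bases lie in an annotated exon on the opposite strand, that of the antisense RNA HOXA11-AS. Among the windows not printed, HOXA2 had 8, HOXA4 had 26 and HOXA7 had 28, the windows of the 2 HOXA10 starts held 24 and 19, and those of the HOXA3 starts held 0 to 26. On either strand, TATAAA was found in the HOXA9 window (10.7% of all windows hold it) and CCAAT in those of HOXA6, HOXA9 and HOXA13 (32.0% of all windows). Neither AGGTCA, a retinoic acid receptor recognition sequence (12.1% of all windows), nor TGATNNAT, a PBX-HOX site (6.47%), was found in these 4 windows.

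The libraries held between 15868353 (WT replicate 2) and 27591724 (sgKDM6A replicate 2) counts, so that 3 counts correspond to 0.189 and 0.109 CPM, where CPM is the count scaled to a common library total. The HEK293T marker list, 8 genes that include PAX2 and EYA1, summed to 723 to 920 CPM per library, with 7 of 8 markers at a mean of 1 CPM or more in each group. VIM was the largest part of that sum, at 400 to 646 CPM, while PAX2 had 7.76 to 17.4 and EYA1 5.28 to 12.5 CPM. The marker below 1 CPM was LHX1, with at most 5 counts in any library. Single markers moved between groups: of 7 tested, 4 were called lower in sgKDM6A (KRT8, KRT18, PAX2 and EYA1), and in sgKMT2B KRT18, VIM and PAX2 were called lower and KRT8 higher. Of all genes tested, 14.6% were called lower in sgKDM6A, and 14.5% lower and 13.7% higher in sgKMT2B. The keratin KRT8 had 59.8 and 61.2 CPM in WT, 5.15 and 5.61 in sgKDM6A (log2 change -3.49 ± 0.11) and 247 and 264 in sgKMT2B (2.08 ± 0.10). In sgKDM5C the log2 changes of VIM and KRT8, -0.28 and -0.24, did not pass. The part of these marker changes in the HOXA values was not tested. Marker lists of blood cells, fibroblasts, endothelium and hepatocytes summed to at most 6.95, 3.15, 1.5 and 1.10 CPM in any library, and CD3E and HBB had 0 counts in all 8. The endothelial list was highest in sgKMT2B, at 1.28 to 1.5 CPM against 0.0649 to 0.165 CPM in WT, and the blood list was highest in sgKDM5C, at 6.84 to 6.95 CPM against 3.47 to 3.70 CPM in WT, and the part of either in the HOXA values was not tested. In its own knockout, the RNA of the targeted gene was 321 ± 13.4 CPM for KDM5C against 455 ± 21.6 in WT (SD, n = 2), 10.9 ± 0.844 for KDM6A against 57.6 ± 4.92, and 69.2 ± 8.85 for KMT2B against 141 ± 6.25. The log2 changes of these 3 genes were -0.50, -2.40 and -1.03, and each was called lower. KDM5C RNA was also below WT where it was not targeted. It was 382 ± 5.53 CPM in sgKDM6A (log2 change -0.25 ± 0.08, called lower) and 392 ± 3.69 CPM in sgKMT2B. KMT2B in sgKDM5C (-0.24) and sgKDM6A (-0.19) and KDM6A in sgKDM5C (-0.15) did not pass. KDM6A had 61.2 ± 6.34 CPM in sgKMT2B.

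The cells expressed the whole cluster, and its summed level was lowest in sgKMT2B. The 10 genes together made up 426 and 414 CPM in the WT libraries, 459 and 426 with sgKDM5C, 403 and 366 with sgKDM6A, and 199 and 198 with sgKMT2B. The mean in sgKMT2B was 47.3% of that in WT, and its libraries did not overlap those of any other group. The sgKDM5C mean was 105% and the sgKDM6A mean 91.5% of WT. In bulk samples such as these, fewer cells that express a gene and less RNA per cell cannot be told apart.

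Levels of different genes were compared per kilobase of exon. In WT, HOXA5, a regulator of lung and axial skeleton development, was highest, at 61.0 ± 0.345 CPM per kb. It was followed by HOXA11 (33.4 ± 3.34 CPM per kb) and HOXA6 (32.7 ± 1.44), which did not differ beyond their spread, and by HOXA9 (23.6 ± 2.76) and HOXA10 (20.3 ± 0.0241). HOXA13 (5.79 ± 1.07), HOXA4 (2.84 ± 0.700), HOXA3 (2.47 ± 0.00712) and HOXA7 (1.69 ± 0.398) formed a lower tier, in which HOXA4 and HOXA3 did not differ beyond their spread. HOXA2, which patterns the hindbrain and the second pharyngeal arch, was lowest at 0.587 ± 0.141 CPM per kb. HOXA5 was the highest and HOXA2 the lowest in each of the 4 groups. In the 3 knockouts HOXA10 took the place below HOXA5, at 29.4 ± 1.42 CPM per kb in sgKDM5C, 24.8 ± 3.21 in sgKDM6A and 11.5 ± 0.162 in sgKMT2B, where HOXA9 followed at 10.9 ± 1.01. In sgKDM6A its level lay within the spread of HOXA6 (21.9 ± 1.92) and in sgKMT2B within that of HOXA9. Counted per kilobase of exon not shared with another gene, HOXA6 held that place in WT, sgKDM5C and sgKDM6A (54.6 ± 2.40, 41.4 ± 4.81 and 36.6 ± 3.20 CPM per kb) and HOXA10 held it in sgKMT2B (15.6 ± 0.220). None of these 4 second places lay beyond the spread: the next gene was HOXA11 in WT (48.4 ± 4.84), HOXA10 in sgKDM5C (39.9 ± 1.93) and sgKDM6A (33.6 ± 4.36), and HOXA9 in sgKMT2B (14.9 ± 1.39). The share of a gene's exon bases that another gene also covers ran from 0% for HOXA2 and HOXA5 to 62.5% for HOXA7, so the place of HOXA6, with 40.1% shared, depends on the length used.

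**Figure D1:**
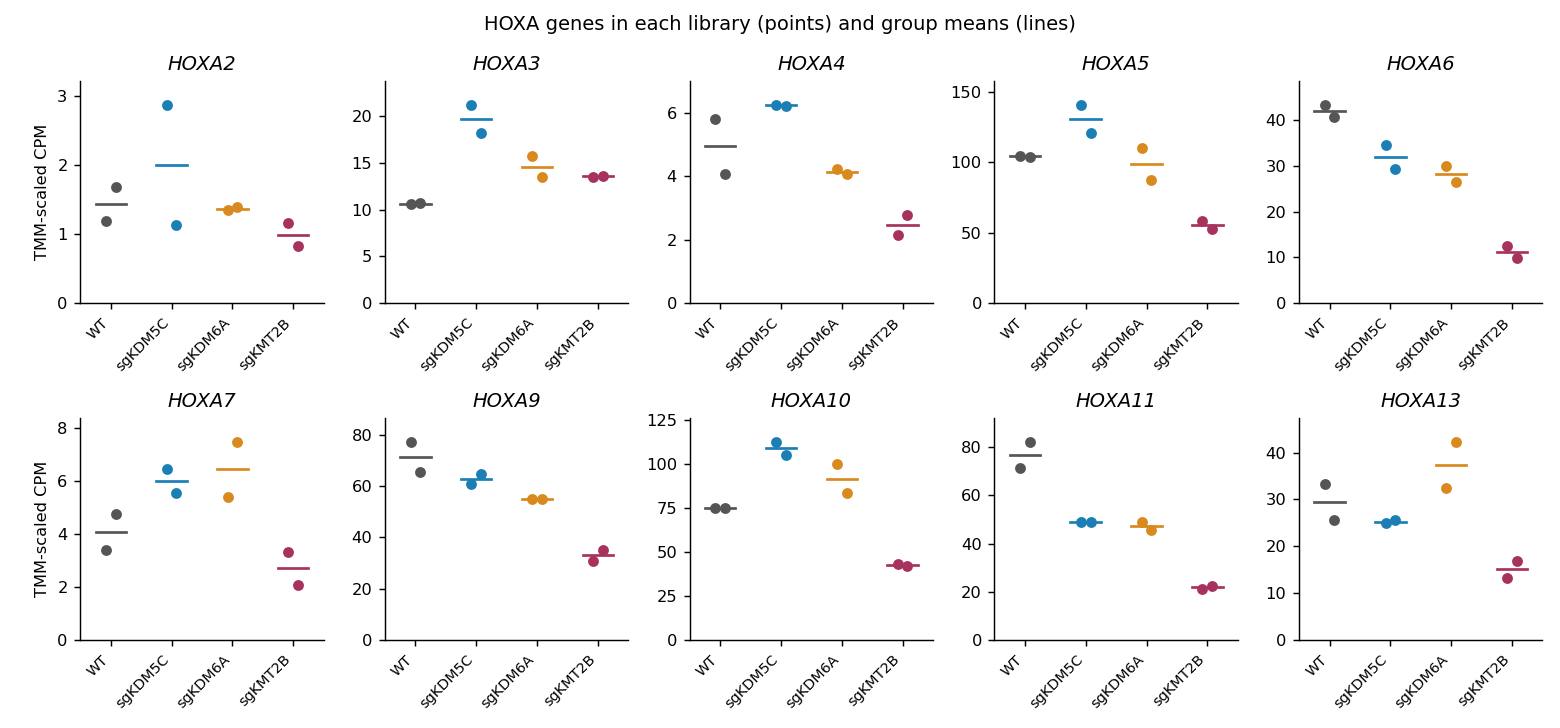
CPM of the 10 HOXA genes in each of the 8 libraries (points) with the mean of each group (lines); each panel has its own axis from 0. For each gene except HOXA2 and HOXA3, both sgKMT2B points lie below all points of the other groups. For HOXA7 the gap is small (3.33 CPM in sgKMT2B replicate 1 against 3.38 in WT replicate 1). For HOXA3 both WT points lie below all others.

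In sgKMT2B, 7 of the 10 genes fell against WT and none rose by edgeR's quasi-likelihood test. Of all 17527 genes tested, 14.5% were called lower and 13.7% higher, and 28.1% in either direction, at a Benjamini-Hochberg adjusted p under 0.05. Of the 10 genes, 1 was higher at an unadjusted p under 0.05, and DESeq2 likewise called 7 lower and 0 higher. The median log2 change of the 10 genes was -0.94, against 0.00 over all genes tested. For 9 of the 10 genes the sgKMT2B libraries lay wholly below the WT libraries (32.2% of all genes tested), and for 1, HOXA3, wholly above (32.1%).

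HOXA6, a central gene that shapes the axial skeleton, had 43.3 and 40.7 CPM in WT and 12.5 and 9.85 CPM in sgKMT2B. It fell by 1.91 ± 0.15 on the log2 scale (SE, adjusted p = 2.16e-06), the largest decrease in the cluster. HOXA11, which patterns the forearm, kidney and uterus with its paralogs, had 71.5 and 82.4 CPM in WT and 21.4 and 22.3 CPM in sgKMT2B. It fell by 1.82 ± 0.12 (adjusted p = 2.76e-07). For both genes the groups were far apart relative to the spread between replicates.

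HOXA9, a regulator of blood stem and progenitor cells, had 77.4 and 65.6 CPM in WT and 30.9 and 35.2 in sgKMT2B, a decrease with a log2 change of -1.12 ± 0.12 (adjusted p = 2.48e-05). HOXA10, which acts in the limb and the uterus, went from 75.2 and 75.1 CPM to 42.9 and 42.1, with a log2 change of -0.82 ± 0.11 (adjusted p = 0.000147). HOXA13, the gene of the hand, foot and urogenital outlet, had 33.3 and 25.6 CPM in WT and 13.2 and 16.9 in sgKMT2B. Its log2 change was -0.97 ± 0.18 (adjusted p = 0.00132), so the posterior genes fell in all 3 cases.

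Among the anterior genes, HOXA5 had 105 and 104 CPM in WT and 58.4 and 52.4 in sgKMT2B, and its log2 change was -0.91 ± 0.12 (adjusted p = 0.000166). HOXA4, a gene of the neck and upper spine, had 5.82 and 4.09 CPM in WT and 2.17 and 2.80 in sgKMT2B, with a log2 change of -1.01 ± 0.26 (adjusted p = 0.00992). The call of HOXA4 was lost without WT replicate 1 or without sgKMT2B replicate 1, with log2 changes of -0.72 and -0.84. HOXA3, needed for the thymus and parathyroid, was the gene with a positive value: 10.6 and 10.7 CPM in WT and 13.5 and 13.6 in sgKMT2B (log2 change 0.35 ± 0.16, adjusted p = 0.117), which did not pass. HOXA7 (3.38 and 4.74 against 3.33 and 2.09 CPM) and HOXA2 (1.20 and 1.69 against 1.16 and 0.827 CPM) had log2 changes of -0.57 ± 0.30 and -0.52 ± 0.48 that did not pass. HOXA2 rested on 21 to 29 counts in each of those 4 libraries, and its SE (0.48) was close to the size of its change (-0.52). The power to detect such a change was not tested.

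**Figure D2:**
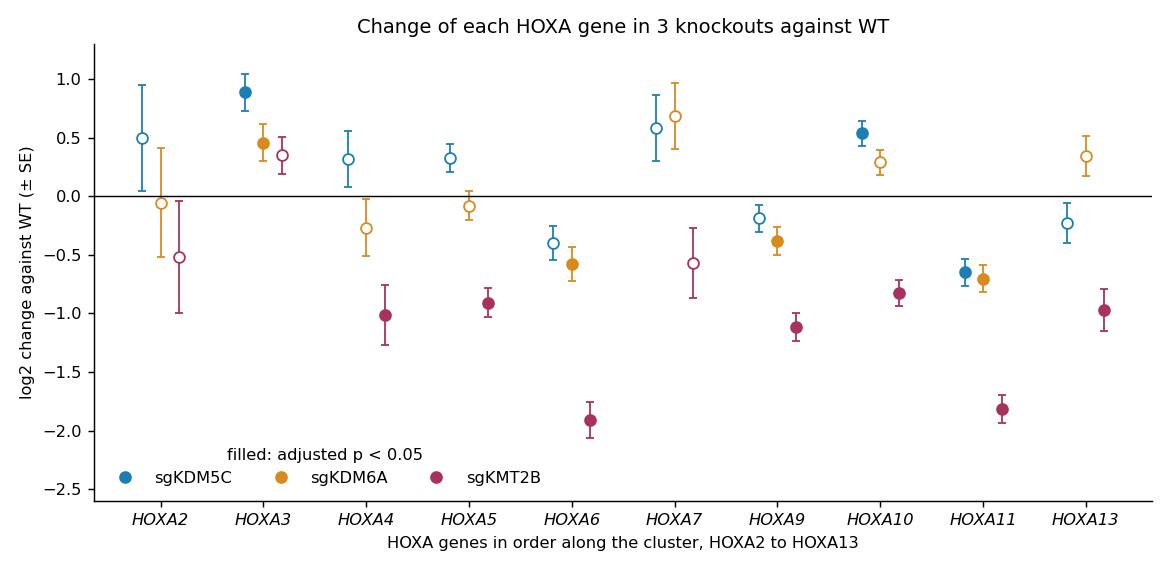
Log2 change of each HOXA gene against WT in the 3 knockouts, with its SE, in order along the cluster; filled points passed an adjusted p under 0.05 in edgeR's quasi-likelihood test. HOXA6 and HOXA11 have the lowest points, at -1.91 and -1.82 in sgKMT2B, and HOXA3 is above 0 in all 3 knockouts.

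In sgKDM5C the cluster moved in both directions: HOXA3 and HOXA10 rose, HOXA11 fell, and the other 7 genes did not pass. Over all genes, 11.1% were called higher and 11.5% lower, so that 3 called of 10 is near the 22.6% called in either direction. The median log2 change of the 10 genes was 0.32, against 0.02 over all genes. HOXA3 had 21.2 and 18.1 CPM against 10.6 and 10.7 in WT, a rise of 0.89 ± 0.16 (adjusted p = 0.00175). HOXA10 had 113 and 105 CPM against 75.2 and 75.1, a rise of 0.54 ± 0.11 (adjusted p = 0.00380).

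HOXA11 had 48.8 and 49.1 CPM in sgKDM5C against 71.5 and 82.4 in WT, with a log2 change of -0.65 ± 0.11 (adjusted p = 0.00151). HOXA10 and HOXA11 are neighbours on the chromosome and went in opposite directions in this knockout. The level of HOXA10 relative to HOXA11, as a ratio of CPM, was 0.981 ± 0.0993 in WT and 2.23 ± 0.116 in sgKDM5C, and it was 1.94 ± 0.155 in sgKDM6A and 1.95 ± 0.0890 in sgKMT2B (SD, n = 2). HOXA5 had 141 and 121 CPM (log2 change 0.33 ± 0.12, adjusted p = 0.0680) and HOXA6 had 34.5 and 29.2 CPM (log2 change -0.40 ± 0.14, adjusted p = 0.0618), both outside the range of WT but not past the test. HOXA5 did pass with upper-quartile factors (0.36), without a filter (0.33) and with the replicate number as a block (0.32), and HOXA6 with that block (-0.40) and with DESeq2 (-0.41). HOXA4 at 6.26 and 6.24 CPM, HOXA7 at 6.48 and 5.56, HOXA9 at 60.9 and 64.8, and HOXA13 at 24.9 and 25.5 likewise did not pass, and HOXA2 spanned 1.13 to 2.87 CPM. The sgKDM5C libraries lay wholly above WT for 5 genes (31.5% of all genes tested) and wholly below for 4 (29.3%).

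In sgKDM6A, HOXA6, HOXA9 and HOXA11 fell and HOXA3 rose, 4 of 10 genes against 27.2% of all genes in either direction (12.6% higher, 14.6% lower). The median log2 change of the 10 genes was -0.07, against 0.01 over all genes. HOXA11 had 48.9 and 45.6 CPM, with a log2 change of -0.70 ± 0.11 (adjusted p = 0.000612), and was the one gene of the 10 called lower in all 3 knockouts, which share the WT libraries. HOXA6 had 29.9 and 26.4 CPM, with a log2 change of -0.58 ± 0.15 (adjusted p = 0.0102). HOXA9 had 54.9 and 55.1 CPM, with a log2 change of -0.38 ± 0.12 (adjusted p = 0.0270). Without sgKDM6A replicate 2 the calls of HOXA6 and HOXA9 were both lost (log2 changes -0.49 and -0.39), and that of HOXA9 was also lost without WT replicate 1 (-0.25) or sgKDM6A replicate 1 (-0.39) and when the 2 groups were fitted alone (-0.38).

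HOXA3 had 15.7 and 13.5 CPM in sgKDM6A, a rise of 0.46 ± 0.16 (adjusted p = 0.0463). That call lies at the threshold: it was lost without WT replicate 1, WT replicate 2, sgKDM6A replicate 1 or sgKDM6A replicate 2, where the log2 change was 0.45, 0.46, 0.33 and 0.56, and it was also lost with DESeq2 (0.46), without a filter (0.46), with the 2 groups fitted alone (0.46) and after thinning to 1 depth (0.29). HOXA10 at 100.2 and 83.4 CPM (log2 change 0.29 ± 0.11, adjusted p = 0.0639), HOXA13 at 32.5 and 42.3 CPM (0.34 ± 0.17) and HOXA7 at 5.39 and 7.50 CPM (0.68 ± 0.28) were higher on average without passing. HOXA10 passed with the replicate number as a block (0.29) and without sgKDM6A replicate 2 (0.41). HOXA5 at 109.9 and 87.2 CPM, HOXA4 at 4.24 and 4.07 CPM and HOXA2 at 1.35 and 1.39 CPM gave log2 changes between -0.27 and -0.05. The sgKDM6A libraries lay wholly above WT for 3 genes and wholly below for 3, shares of all genes tested that were 31.7% in each direction.

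The 3 knockouts were then compared with each other, which tests the difference between their changes directly. Against sgKMT2B, 9 of the 10 genes were higher in sgKDM5C (11.6% of all genes tested), with HOXA2 the exception, and 8 of 10 were higher in sgKDM6A (12.4%), the exceptions being HOXA2 and HOXA3. In either direction, 22.1% of all genes tested were called between sgKDM5C and sgKMT2B and 24.9% between sgKDM6A and sgKMT2B. The median log2 differences of the 10 genes were 1.16 and 0.97. For 9 genes the sgKDM5C libraries lay wholly above those of sgKMT2B (31.8% of all genes tested), and the same held for 9 genes in sgKDM6A (32.1%). HOXA6 was 1.51 ± 0.15 higher in sgKDM5C than in sgKMT2B (adjusted p = 1.26e-05) and 1.33 ± 0.15 higher in sgKDM6A (adjusted p = 2.97e-05). HOXA10 was 1.36 ± 0.11 higher in sgKDM5C (adjusted p = 1.76e-06) and 1.11 ± 0.11 higher in sgKDM6A (adjusted p = 8.49e-06). HOXA7, central and weakly expressed, was 1.15 ± 0.28 and 1.25 ± 0.28 higher (adjusted p = 0.0101 and 0.00523).

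Several of these calls rested on single libraries. HOXA4 in sgKDM6A against sgKMT2B (0.74 ± 0.25, adjusted p = 0.0468) lost its call without any 1 of the 4 libraries (0.57 to 0.94), and with DESeq2, without a filter, with the 2 groups fitted alone and after thinning (0.74 to 0.75). HOXA7 lost its call against sgKMT2B without sgKMT2B replicate 2 in both comparisons (0.85 for sgKDM5C and 0.95 for sgKDM6A), without sgKDM5C replicate 1 (1.04) and without sgKDM6A replicate 2 (0.99). HOXA3 in sgKDM5C against sgKMT2B (0.54 ± 0.15, adjusted p = 0.0210) lost its call without sgKDM5C replicate 1 (0.42), sgKMT2B replicate 1 (0.52) or sgKMT2B replicate 2 (0.55), and HOXA13 there (0.74 ± 0.18) without sgKMT2B replicate 1 (0.56).

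Between sgKDM5C and sgKDM6A, HOXA5 was higher in sgKDM5C by 0.41 ± 0.12 (adjusted p = 0.0302) and HOXA13 was lower by -0.57 ± 0.17 (adjusted p = 0.0308), where 10.9% of all genes were called higher and 8.86% lower (19.8% in either direction). The sgKDM5C libraries lay wholly above those of sgKDM6A for 5 genes (31.3% of all genes tested) and wholly below for 1 (29.0%). The HOXA5 call was lost without sgKDM5C replicate 1 (0.30) or sgKDM6A replicate 2 (0.24). The HOXA13 call was lost without sgKDM5C replicate 1 (-0.55), sgKDM5C replicate 2 (-0.60) or sgKDM6A replicate 2 (-0.37). For the other 8 genes the difference did not pass. HOXA11, called lower than WT in both, differed between them by 0.05 ± 0.11 (adjusted p = 0.793).

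The make-up of the cluster's RNA differed between WT and the knockouts. HOXA11 made up 18.3 ± 2.20% of the summed CPM in WT, against 11.1 ± 0.634% for sgKDM5C, 12.3 ± 0.208% for sgKDM6A and 10.99 ± 0.393% in sgKMT2B. HOXA10 went the other way, from 17.9 ± 0.341% in WT to 24.6 ± 0.123%, 23.8 ± 1.5% and 21.4 ± 0.214%. HOXA6 made up 9.997 ± 0.238% in WT and 5.62 ± 0.915% in sgKMT2B. HOXA3, the only gene of the 10 with a positive log2 change in sgKMT2B (0.35 ± 0.16, not called), made up 2.53 ± 0.0585% in WT and 6.81 ± 0.0920% in sgKMT2B. HOXA5 remained the largest share, at 24.8 ± 0.362% in WT, 29.5 ± 1.58% for sgKDM5C, 25.5 ± 2.45% for sgKDM6A and 27.9 ± 2.01% in sgKMT2B. An exact permutation test of 2 libraries against 2 cannot go below p = 0.333, so these shares are given without a test.

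**Figure D3:**
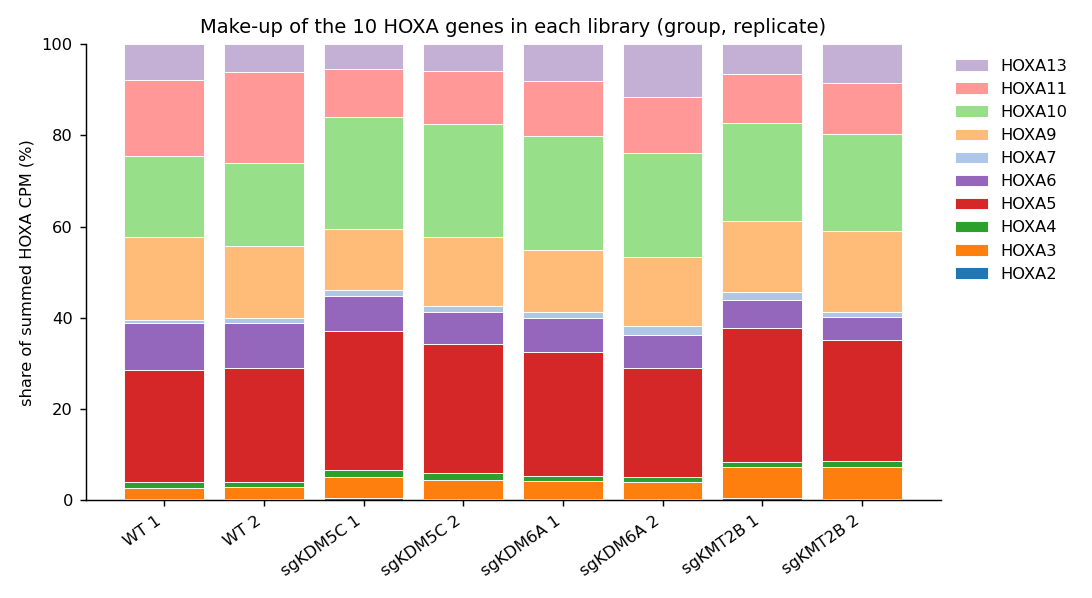
Share of each HOXA gene (stacked bars, %) in the summed CPM of the 10 genes, in each of the 8 libraries. HOXA11 takes 16.8 to 19.9% in the WT libraries and 10.6 to 12.4% in the 6 knockout libraries.

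Likeness between patterns was measured as the root-mean-square (RMS) difference of log2 CPM over the 8 libraries, with each gene centred on its own mean. The closest pair of members was HOXA5 and HOXA10 (0.147), followed by HOXA6 and HOXA11 (0.192), and the farthest was HOXA3 and HOXA6 (0.810). Neither close pair lies side by side in the cluster. Among 11835 genes outside it, APEH (0.0934), KMT2B (0.1004) and HOXC-AS1 (0.101) were nearest to HOXA9. KMT2B is the gene targeted in sgKMT2B, where its own RNA fell (log2 change -1.03) by about as much as HOXA9 (-1.12). A link between KMT2B level and HOXA9 was not tested. EPHA8 (0.0939) was nearest to HOXA11, PHYHD1 (0.0982) and NKX2-2 (0.1104) to HOXA10, MANSC1 (0.0871) to HOXA5, SH3GL3 (0.0604) to HOXA3 and RGCC (0.170) to HOXA6. HOXA2, with the fewest counts, had no gene nearer than MSRA (0.250).

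The antisense RNAs transcribed from within the cluster did not all follow their neighbours. The sources used here do not give the strand setting of the counting, so reads of a HOXA gene and of an antisense RNA over the same bases cannot be told apart. HOXA11-AS had 16.2 and 12.9 CPM in WT and 10.4 and 9.45 in sgKMT2B, against 30.3 and 26.3 in sgKDM5C and 25.9 and 25.2 in sgKDM6A. It rose by 0.95 ± 0.15 in sgKDM5C (adjusted p = 0.00104) and by 0.80 ± 0.15 in sgKDM6A (adjusted p = 0.00207), in which HOXA11 fell, and its log2 change in sgKMT2B was -0.56 ± 0.16 (adjusted p = 0.0186). The sgKMT2B call was lost without WT replicate 1 (-0.38), sgKMT2B replicate 1 (-0.63) or sgKMT2B replicate 2 (-0.49). The counts of HOXA11 relative to HOXA11-AS were 5.39 ± 1.39 in WT, against 1.74 ± 0.182 for sgKDM5C, 1.85 ± 0.0593 for sgKDM6A and 2.20 ± 0.224 for sgKMT2B.

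HOTAIRM1, beside HOXA2, fell by 1.34 ± 0.14 in sgKMT2B (adjusted p = 2.81e-05), and HOXA-AS3, which runs antisense from HOXA4 into HOXA7, fell by 1.30 ± 0.22 (adjusted p = 0.000862). Neither passed in the other knockouts, where their log2 changes lay between -0.39 and 0.30, though HOTAIRM1 in sgKDM6A passed with a filter at a mean of 1 CPM and with the replicate block (-0.39 in both). HOTTIP, at the 5′ end of the cluster and known to bind the Trithorax subunit WDR5, had 15 and 4 counts in WT and 39 and 38 in sgKDM5C. Its rise there (1.63 ± 0.55, adjusted p = 0.0481) was lost without WT replicate 2 (1.21) or without replicate 1 (1.64) or 2 (1.61) of sgKDM5C, after thinning (1.45) and with DESeq2 (1.64). HOXA-AS2 and HOXA10-AS were called in no knockout against WT with the main settings, and HOXA-AS2 passed in sgKDM5C without a filter (0.66) or without WT replicate 2 (1.05).

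**Figure D4:**
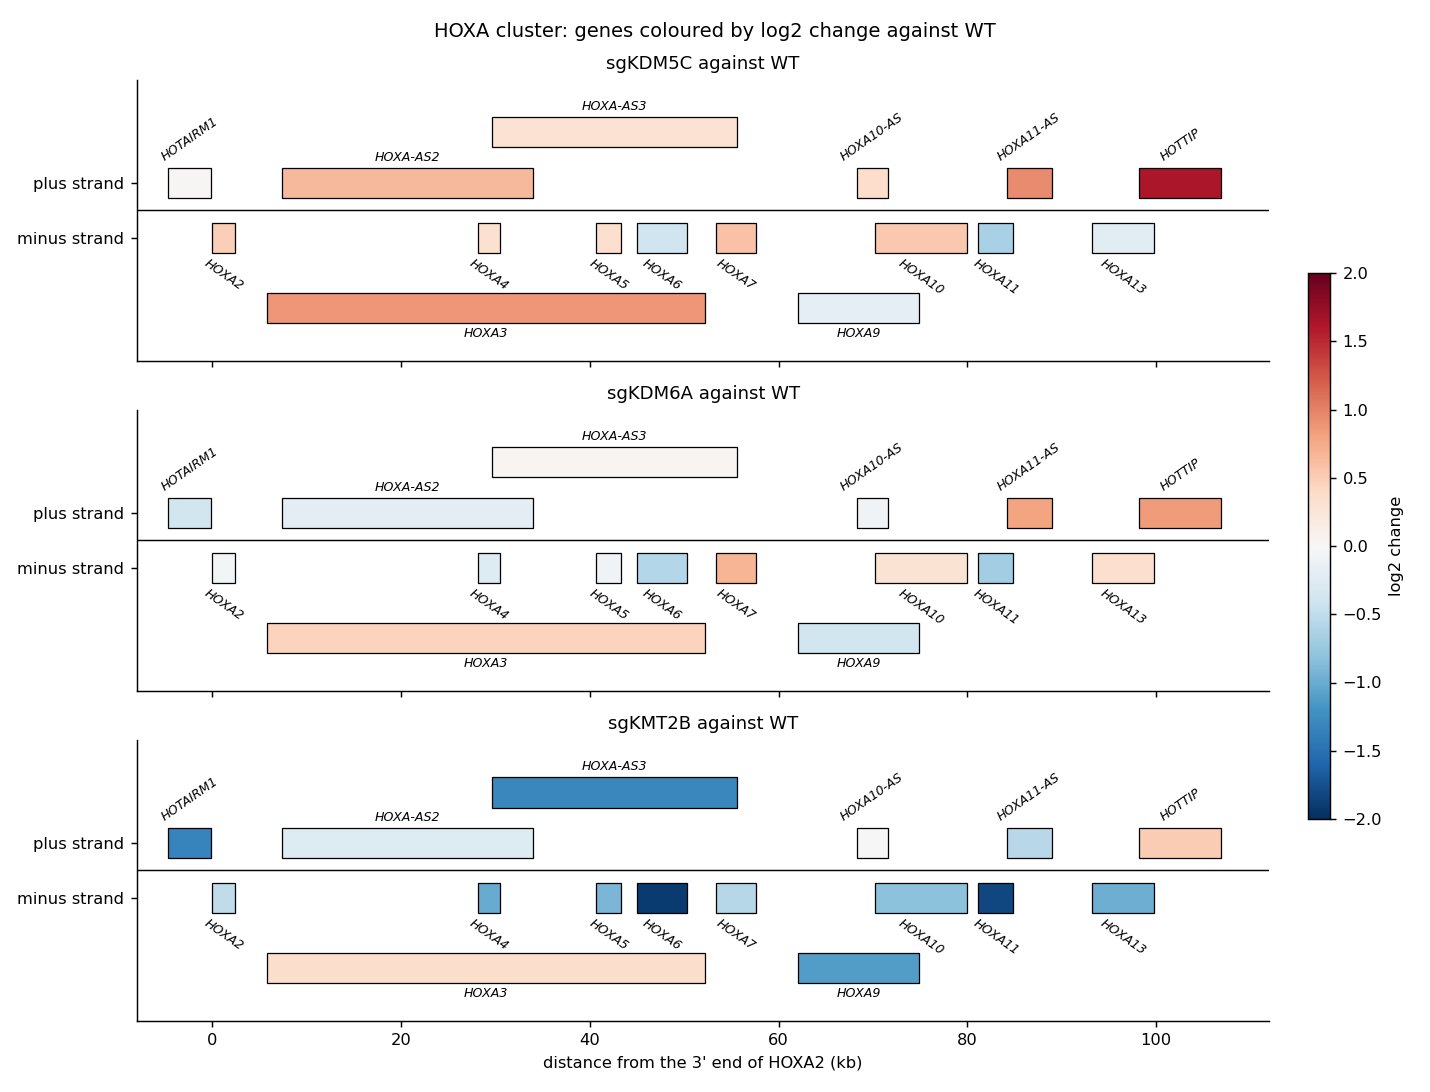
Map of the HOXA cluster by strand, with distance from the 3′ end of HOXA2 (kb) on the x axis and each gene coloured by its log2 change against WT in 1 panel per knockout; overlapping genes are drawn on separate levels. In sgKMT2B the HOXA genes other than HOXA3 are blue (lower), while in sgKDM5C and sgKDM6A HOXA11 is blue beside a red HOXA11-AS.

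Genes outside the cluster on the same chromosome did not shift as a block. The nearest gene on the 3′ side, SKAP2, rose in sgKDM5C (0.33 ± 0.11) and sgKDM6A (0.40 ± 0.11) and had a log2 change of -0.06 ± 0.11 in sgKMT2B. The SKAP2 call in sgKDM5C was lost without WT replicate 2 or without either sgKDM5C library (0.29 to 0.36), and also without a filter (0.33), with the 2 groups fitted alone (0.33) and after thinning (0.32), and that in sgKDM6A without WT replicate 2 or either sgKDM6A library (0.36 to 0.42). On the 5′ side, EVX1 had at most 5 counts in any library and was not tested. HIBADH, the nearest tested gene on that side, was called lower in sgKDM6A (-0.41 ± 0.11, adjusted p = 0.0145) and in sgKMT2B (-0.32 ± 0.11, adjusted p = 0.0450), and its change in sgKDM5C, -0.25 ± 0.11, did not pass. The HIBADH call in sgKMT2B was lost without any 1 of the 4 libraries (-0.39 to -0.26), without a filter (-0.31), with the 2 groups fitted alone (-0.32) and after thinning (-0.32), and that in sgKDM6A without either sgKDM6A library (-0.40 and -0.44). CREB5, farther out, fell in all 3 knockouts, by 1.44 ± 0.17, 1.14 ± 0.17 and 0.65 ± 0.16, and the sgKMT2B call was lost without sgKMT2B replicate 1 (-0.48). Within 5 Mb of the cluster, leaving out the nearest 200 kb, 37 genes whose mean reached 5 CPM had median log2 changes of -0.05 for sgKDM5C, 0.01 for sgKDM6A and 0.02 for sgKMT2B. Single genes among these 37 did move. For sgKDM5C, 3 passed as higher and 7 as lower. The sgKDM6A counts were 6 up and 8 down, and those of sgKMT2B were 5 up and 8 down. The matching shares of all genes tested, called either way and not limited to a mean of 5 CPM, were 22.6, 27.2 and 28.1%. Whether the 37 genes differ from those shares was not tested. Over the 546 genes of chromosome 7 whose mean reached 5 CPM, the median log2 changes were 0.03, 0.06 and 0.04.

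The other 3 HOX clusters are given for comparison, over genes whose mean reached 1 CPM. In sgKMT2B, 6 of 9 HOXB genes fell and 1 rose (median log2 change -1.40), while 2 of 7 HOXC genes (-0.29) and 2 of 7 HOXD genes (-0.41) fell. Of all genes tested, 14.5% were called lower and 13.7% higher, so that 2 called of 7 is near the 28.1% called in either direction. HOXB6 and HOXB5, with changes of -1.91 ± 0.15 and -1.85 ± 0.18, lay close to the value of HOXA6. In sgKDM5C and sgKDM6A, 4 and 6 of 9 HOXB genes rose (medians 0.62 and 0.66), and 4 and 5 of 7 HOXC genes (0.42 and 0.47). HOXD gave 2 risen and 1 fallen in sgKDM5C and 3 risen and 1 fallen in sgKDM6A. Over all genes tested, 11.1% were called higher and 11.5% lower in sgKDM5C, and 12.6% higher and 14.6% lower in sgKDM6A. The HOXA medians in these knockouts were 0.32 and -0.07, and whether the clusters differ was not tested.

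**Figure D5:**
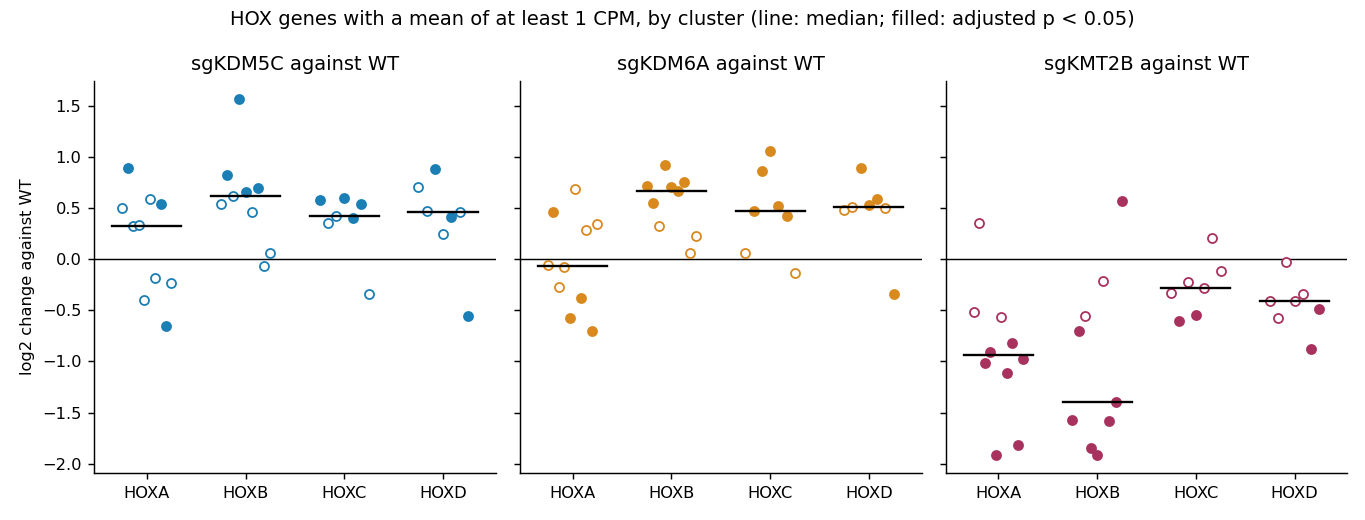
Log2 change against WT of each HOX gene whose mean reached 1 CPM (points), by cluster, in the 3 knockouts; lines are medians and filled points passed an adjusted p under 0.05. The HOXA median is 0.32 for sgKDM5C, -0.07 for sgKDM6A and -0.94 for sgKMT2B.

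Genes known to act on HOX genes or with HOX proteins, in lists chosen with earlier results known, moved in both directions in sgKMT2B. Of 11 tested inputs to HOX expression, 3 rose and 4 fell in sgKMT2B, 1 rose and 2 fell in sgKDM6A, and 1 fell in sgKDM5C, where 28.1, 27.2 and 22.6% of all genes were called in either direction. Retinoic acid induces 3′ HOX genes, ALDH1A2 makes it, CYP26B1 breaks it down, and RXRA and RARA are DNA-binding receptors through which it acts. ALDH1A2 had 130 and 150 CPM in WT and 18.7 and 19.9 in sgKMT2B (log2 change -2.85 ± 0.11, adjusted p = 3.22e-09), and CYP26B1 had 9.45 and 12.5 CPM in WT and 2.73 and 3.86 in sgKMT2B (-1.73 ± 0.23, adjusted p = 0.000145). Of the receptors, RXRA and RARA rose: RXRA had 55.4 and 51.6 CPM in WT and 78.6 and 74.0 in sgKMT2B (0.51 ± 0.11, adjusted p = 0.00321), and RARA had 32.7 and 32.1 CPM in WT and 48.6 and 44.1 in sgKMT2B (0.51 ± 0.12, adjusted p = 0.00771). In sgKMT2B, RARB and RARG had log2 changes of -0.30 and -0.09 that did not pass. The third gene that rose was RAD21, a cohesin subunit (0.49 ± 0.09), and the other 2 that fell were CYP26A1 (-1.41 ± 0.35) and CDX2 (-0.37 ± 0.12). The gene that fell in sgKDM5C was RARB (-0.62 ± 0.19), a call lost when any library of the 2 groups was left out (-0.66 to -0.59). In sgKDM6A, RARB (-0.84 ± 0.19) and ALDH1A2 (-0.41 ± 0.10) fell and RXRA rose (0.46 ± 0.11). These calls were lost without sgKDM6A replicate 2 for RARB (-0.60) and ALDH1A2 (-0.37), without WT replicate 2 for ALDH1A2 (-0.30) and without sgKDM6A replicate 1 for RXRA (0.36). RARA, RARB, RARG, CYP26A1 and CDX2 are named to complete the list, after their values were seen. Of 8 tested TALE cofactors, which bind DNA together with HOX proteins, 1 rose and 1 fell in sgKMT2B and 2 rose and 1 fell in sgKDM6A, against the same 28.1 and 27.2%.

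Of 25 tested Polycomb genes, 3 rose and 6 fell in sgKDM5C, against 3 and 3 for sgKDM6A and 7 and 3 for sgKMT2B, where 22.6, 27.2 and 28.1% of all genes were called in either direction. CBX8, a Polycomb subunit that reads lysine 27 methylation, rose by 0.76 ± 0.14 in sgKMT2B and by 0.64 ± 0.14 in sgKDM6A. Of 26 Trithorax and demethylase genes, which include the 3 targeted genes, 2 rose and 6 fell in sgKDM5C, against 4 and 6 for sgKDM6A and 5 and 2 for sgKMT2B, with the same shares over all genes. SETD1B, another lysine 4 methyltransferase, rose by 0.83 ± 0.14 in sgKMT2B, by 0.68 ± 0.14 in sgKDM6A and by 0.43 ± 0.14 in sgKDM5C. KDM6B, the other lysine 27 demethylase of this family, fell by 0.99 ± 0.16 in sgKDM6A and by 0.60 ± 0.16 in sgKDM5C, where the call was lost without WT replicate 2 (-0.58) or sgKDM5C replicate 1 (-0.39). Each of these lists moved in both directions in the knockouts named.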

How the data were processed

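Per the labels' protocols, poly(A)-selected RNA was sequenced from both fragment ends. The authors deposited 1 table of raw counts per Ensembl gene. Per the submitters' processing notes the build was GRCh38 (hg38) and the tools were STAR and HTSeq 0.11.2. The sources used here do not give the STAR version, the counting annotation or the strand setting. Of 60617 identifiers, 60261 had a symbol in a gene name table. Positions, lengths and overlaps came from GENCODE v29.

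The test was edgeR's quasi-likelihood test (version 4.0.16, R 4.3.3; glmQLFit and glmQLFTest) on the counts of all 8 libraries (1 coefficient per group, TMM factors of 0.965 to 1.06, 4 residual degrees of freedom). After filterByExpr by group, 17527 genes remained. The p-values were adjusted by the Benjamini-Hochberg method within each of 6 comparisons and called under 0.05. The script was tested on simulated data. Levels are TMM-scaled CPM, means ± SD over 2 libraries, and changes are log2 with SE. Floors of 3 counts cover counting error only. Replicates of a group differed by more than sampling noise (chi-square per degree of freedom 7.88 to 15.8), so each library was 1 replicate.

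The text names all 10 members, cluster neighbours, the targeted genes, up to 4 genes of each other list with the smallest adjusted p, and the genes with the most similar pattern; some genes these rules cover are not reported here. The members and lists were chosen with earlier results of these data known. DESeq2 1.42.0, other scaling factors and filters, thinning to 1 depth, fits of 2 groups, a replicate block and leaving out each library were tried as alternatives.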

Additional observations from a re-analysis of the deposited data

How the results depend on the processing

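The 7 decreases in sgKMT2B were called under each of the 8 alternatives to the main settings, and 6 or 7 were called when a library was left out. The number of genes called higher in sgKDM5C than in sgKMT2B was 9 under those 8 alternatives and 7 to 10 with a library left out. For sgKDM6A against sgKMT2B it was 7 or 8, and 6 or 7 with a library left out. Calls of 1 gene near the threshold moved more. DESeq2 called 2 genes lower in sgKDM5C than in WT, adding HOXA6. In sgKDM6A against WT, 0 genes were called higher without a filter, with 2 groups fitted alone, after thinning to 1 depth and with DESeq2, and 0 to 1 with a library left out, where 1 to 3 were called lower. Between sgKDM5C and sgKDM6A, 2 genes (HOXA3 and HOXA5) were called higher with upper-quartile factors, with a filter at a mean of 1 CPM and after thinning. With a library left out this comparison gave 0 to 1 higher and 0 to 1 lower.

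By their labels, same-numbered libraries share only a number, so no pairing was assumed. The correlation of their deviations was -0.018 to 0.007 between WT and a knockout and 0.083 to 0.182 between knockouts. Whether same-numbered knockout libraries share a batch was not tested. With the replicate number as a block, 2 genes were called lower in sgKDM5C (HOXA6 was added), 3 higher there (HOXA5 was added), 2 higher in sgKDM6A (HOXA10 was added) and 2 higher in sgKDM5C than in sgKDM6A (HOXA3 was added).

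The summed level on raw library totals was 406.8 CPM in WT and 195.9 in sgKMT2B. With overlapping RNAs added it was 461.8, 506.3, 438.4 and 223.4 CPM in WT, sgKDM5C, sgKDM6A and sgKMT2B. With them in the total, the HOXA5 share was 22.55, 25.79, 22.41 and 24.79% in that order, the HOXA10 share 16.27, 21.55, 20.89 and 19.02%, and the HOXA11 share 9.684, 10.78 and 9.784% in the 3 knockouts.

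No called change reversed. Log2 changes that did not pass and changed sign with a library left out were, as lowest and highest values, HOXA2 (-0.330 to 1.003), HOTAIRM1 (-0.0345 to 0.0713) and CBX3 (-0.0742 to 0.613) in sgKDM5C. In sgKDM6A they were HOXA2 (-0.302 to 0.195), HOXA4 (-0.487 to 0.0215), HOXA5 (-0.263 to 0.0762), HOXA-AS2 (-0.551 to 0.192) and HOXA10-AS (-0.758 to 0.373). In sgKMT2B they were HOXA-AS2 (-0.624 to 0.119), HOXA10-AS (-0.515 to 0.465) and CBX3 (-0.0911 to 0.596). Between sgKDM5C and sgKDM6A they were HOXA2 (-0.270 to 1.06), HOXA7 (-0.317 to 0.154) and HOXA11 (-0.00407 to 0.105), and between sgKDM6A and sgKMT2B HOXA3 (-0.0166 to 0.214). After thinning, HOXA10-AS (-0.0526) and HOTTIP (-0.0306) in sgKMT2B, HOXA7 between sgKDM5C and sgKDM6A (0.0583) and HOXA3 between sgKDM6A and sgKMT2B (-0.0814) changed sign, as did HOXA10-AS in sgKMT2B with upper-quartile factors (-0.00723). The cause was not tested. Depth was lowest for HOTTIP and HOXA2, with 4 to 39 and 21 to 79 counts per library.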
